A study of Mus musculus with 7 samples.

Results

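Oct1 sites that were present in mouse embryonic stem cells (ESCs) and at day 3 of mesodermal differentiation, but not at day 6, were followed through 4 peak lists from chromatin immunoprecipitation sequencing (ChIP-seq). Members were chosen by peak calls in the 3 Oct1 lists. A site counted as a member if an ESC Oct1 peak overlapped a day 3 Oct1 peak by at least 1 bp and overlapped no day 6 Oct1 peak. There were 1040 such sites among 17709 ESC Oct1 peaks, or 5.87%. With every list cut to the length of the shortest, they were 664 of 4962 (13.4%). With the higher-scoring 50% of every list, they were 405 of 8908 (4.55%). Distances to genes below are from the midpoint of the peak. The other ESC Oct1 peaks comprised 532 with a peak at both later times, 648 with a day 6 but no day 3 peak, and 15489 with no later peak. Of the 1040 sites, 567 also overlapped an ESC peak of Oct4 and 473 did not.

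The cells were ESCs of the genotype labelled Parental in every group. The groups were undifferentiated ESCs with an Oct1 antibody, undifferentiated ESCs with an Oct4 antibody, and day 3 and day 6 of mesodermal differentiation with an Oct1 antibody. In the full course to mesoderm, cells received Bmp4 for 2 days. They then received Rspo3, a Wnt signal enhancer, and the BMP receptor inhibitor LDN-193189 over 4 days, and the day 3 cells were taken within this course. Each group was 1 library, so no value below carries a replicate error, and no test between groups was possible. All intervals are 95% intervals for the counting of peaks or promoters. The lists hold 17709 peaks for Oct1 in ESCs, 22817 for Oct4, 4867 for Oct1 at day 3 and 7758 for Oct1 at day 6. The labels state 100 M read pairs for each library, but the reads behind each list are unknown. Absence from a list means only that no peak was called there. The lists hold no expression values, so the labelled cell type was not checked here.

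Oct1 (gene Pou2f1) is a widely expressed POU-domain transcription factor, and Oct4 (gene Pou5f1) is its relative that maintains pluripotency. Both recognise the octamer ATGCAAAT through a bipartite DNA-binding domain. Oct4 often binds beside Sox2 at a composite of a Sox site and the octamer. Promoters of histone H2B genes and of small nuclear RNA (snRNA) genes are the classic targets of Oct1.

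The promoter sequences below are shown because they carry the octamer at member sites. They are RefSeq sequences of assembly GRCm38.p6, given 5′ to 3′ on the strand of the gene and ending before an annotated start. Egr2 has several annotated starts, and its stretch lies downstream of the earliest, at position 67537566. Capitals mark the octamer on either strand (ATGCAAAT or ATTTGCAT). In Gm34201 and Pipox the capitals extend over a Sox-Oct composite, searched as TTGT followed by any 1 base and the octamer. The first 4 lines are histone H2B genes, Zfp42 is a marker gene of undifferentiated ESCs, and Art5 is shown for its pair of octamers.
H2bc14: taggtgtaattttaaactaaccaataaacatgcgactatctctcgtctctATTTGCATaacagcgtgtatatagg
H2bc18: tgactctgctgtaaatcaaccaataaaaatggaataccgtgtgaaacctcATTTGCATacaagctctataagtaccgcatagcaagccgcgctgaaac
H2bc12: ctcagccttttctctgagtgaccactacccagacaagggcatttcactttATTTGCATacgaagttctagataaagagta
H2bc8: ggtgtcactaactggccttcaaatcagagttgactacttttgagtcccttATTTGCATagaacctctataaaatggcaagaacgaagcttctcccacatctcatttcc
Zfp42: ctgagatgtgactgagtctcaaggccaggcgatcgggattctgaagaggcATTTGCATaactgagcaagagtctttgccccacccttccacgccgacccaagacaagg
Gm34201: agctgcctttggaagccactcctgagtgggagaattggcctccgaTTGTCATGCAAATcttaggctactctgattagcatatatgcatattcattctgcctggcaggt
Pipox: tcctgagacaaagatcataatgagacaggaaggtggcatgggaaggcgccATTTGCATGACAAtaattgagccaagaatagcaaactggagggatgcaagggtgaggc
Prox2: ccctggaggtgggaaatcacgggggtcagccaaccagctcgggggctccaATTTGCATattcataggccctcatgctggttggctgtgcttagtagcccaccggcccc
Art5: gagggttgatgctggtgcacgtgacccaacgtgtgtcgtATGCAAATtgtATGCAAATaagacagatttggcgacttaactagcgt
Egr2: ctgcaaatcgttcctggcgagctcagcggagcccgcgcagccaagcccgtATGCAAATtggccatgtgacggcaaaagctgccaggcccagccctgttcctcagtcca
The histone stretches lay at chr13:21721969-21722043 (H2bc14), chr3:96269602-96269699 (H2bc18), chr13:22035741-22035820 (H2bc12) and chr13:23571291-23571398 (H2bc8), all on the plus strand. The stretches of Zfp42 at chr8:43307138-43307245, Gm34201 at chr15:84622174-84622281, Pipox at chr11:77894010-77894117, Prox2 at chr12:85106450-85106557 and Art5 at chr7:102100230-102100315 were on the minus strand. That of Egr2 lay at chr10:67537692-67537799 on the plus strand.

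Member sites at promoters carried the octamer more often than ESC Oct1 sites with no day 3 peak. Sequence was not used to choose the sites. Promoters were windows of 300 bases, from 250 before to 50 after an annotated start, and a promoter was assigned to a peak if the start lay in the peak. Of 149 promoters at members, which belonged to 140 genes and 131 peaks, 26 (17.4%, exact interval 11.7 to 24.5%) held ATGCAAAT on either strand. The share among all 32851 promoters was 1.74%. At sites kept at both later times 49 of 357 promoters (13.7%) held it. At sites with a day 6 but no day 3 peak 5 of 173 (2.89%) did, and at sites with no later peak 15 of 695 (2.16%) did. The odds ratio against sites with no later peak was 9.58 (4.93 to 18.6), and against sites with only a day 6 peak it was 7.10 (2.65 to 19.0). With up to 1 mismatch, when 18.6% of all promoters match, the former was 2.11 (1.43 to 3.12) and the latter 1.80 (1.09 to 2.97). The former was 4.75 with the core TGCAAAT, 5.52 without wide or clustered peaks, 5.76 with lists of equal length and 17.9 for promoter windows wholly inside the peak. The latter was 3.69 without wide or clustered peaks. Against sites kept at both times it was 1.33 (0.790 to 2.23), an interval that includes 1. A match describes the letters in this window and is neither a mapped site nor a cause of binding.

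**Figure D1:**
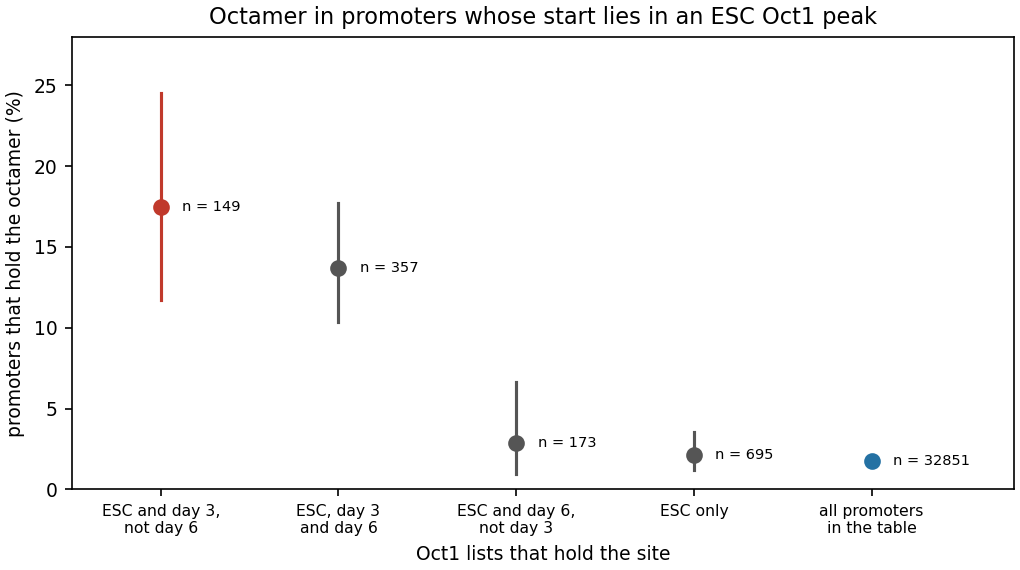
Share of promoters that hold the octamer (vertical axis, percent), by the Oct1 lists that hold the ESC site in which the promoter's start lies (horizontal axis), with all 32851 promoters at the right. Points are shares, bars exact 95% intervals, and n the number of promoters; the 149 promoters at sites of ESC and day 3 only (red) reached 17.4%, against 2.16% at ESC-only sites.

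The octamer was not limited to histone promoters. With the promoters of replication-dependent histone genes left out, 20 of 136 promoters (14.7%) still held it. Counted by peak, 21 of the 131 member peaks that held a start had a promoter with an octamer (16.0%). Because divergent genes and the several starts of Egr2 share sequence, the 27 matches in 26 promoters of 24 genes corresponded to 22 distinct positions in the genome. Of the 27 matches, 25 were centred upstream of the start of their own promoter and 13 of these were centred within 100 bases before it. The octamer of Egr2 is counted here from its later starts and lies downstream of its earliest start. Promoters at members with an Oct4 peak held the octamer in 10 of 74 cases (13.5%). Those without an Oct4 peak held it in 16 of 75 (21.3%), and the odds ratio of 0.576 had an interval from 0.242 to 1.37.

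**Figure D2:**
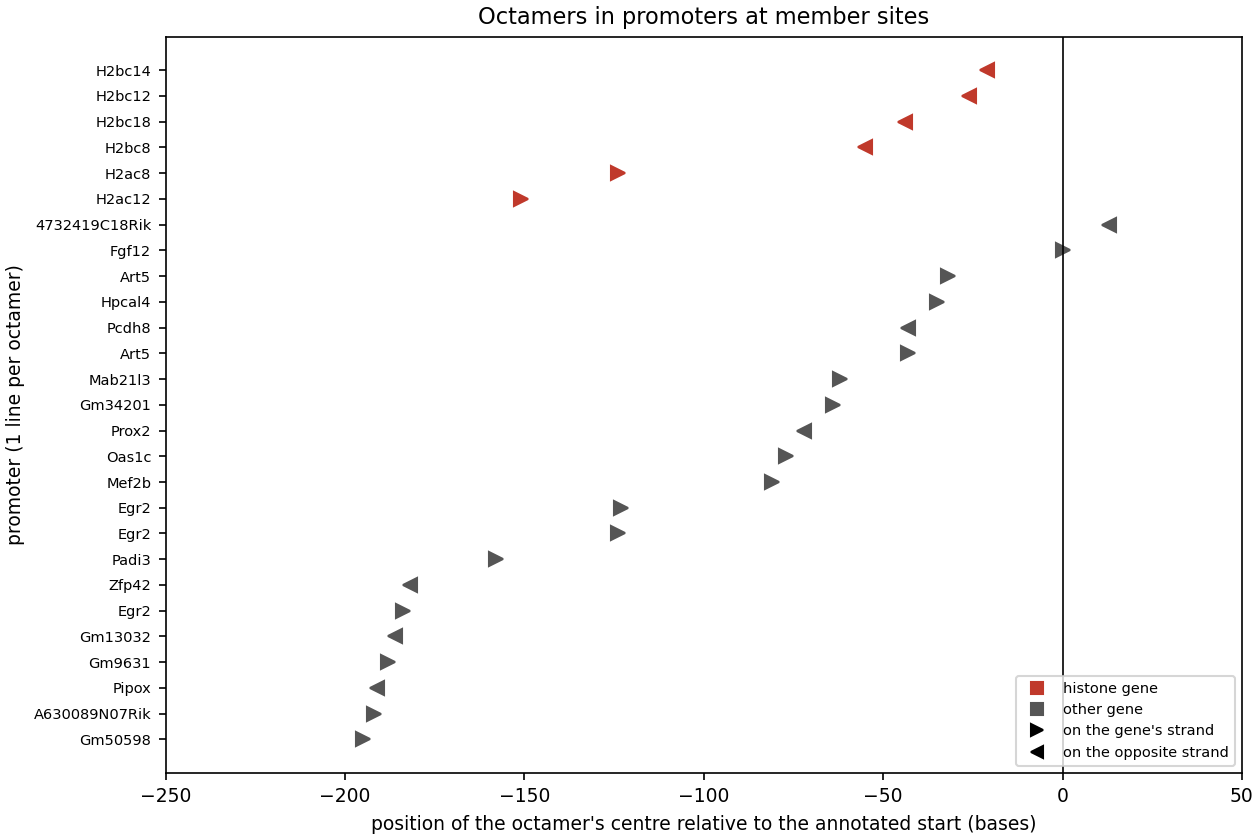
Position of each octamer's centre relative to the annotated start (horizontal axis, bases) in the promoters at member sites, 1 line per octamer (vertical axis); red marks histone genes and the triangle points along the octamer's strand. Of the 27 octamers 25 lie upstream of the start of their own promoter, and those of the H2b genes lie at -21 to -55. The octamer of Egr2 is drawn from its later starts only.

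A comparison motif was searched in the same windows. GGGCGG, the core of the GC box bound by Sp factors, was in 56 of the 149 member promoters (37.6%), against 35.7% of all promoters. Promoters at sites kept at both times held it more often (69.5%, odds ratio of members against them 0.265, 0.177 to 0.395). Promoters at sites with no later peak held it less often (28.9%, odds ratio 1.48, 1.02 to 2.14), and at sites with only a day 6 peak the share was 46.8% (0.684, 0.438 to 1.07). The palindromic element MORE, on which POU factors pair and which was searched as 2 direct copies of ATGCAT, was in none of the 149 member promoters. It was in only 3 of all 32851, so its absence says little. The Sox-Oct composite was in 2 member promoters, Gm34201 and Pipox, and in 7 of all 32851. No promoter at the other 3 kinds of ESC Oct1 site held it.

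Histone genes formed one group among the sites. Replication-dependent histone genes encode the bulk of chromatin's histones and are expressed in S phase, from clusters on chromosomes 13 and 3. The set counted here was taken by gene symbol. It holds every numbered H1f gene, whether or not that gene is expressed in S phase. Of 22 ESC Oct1 peaks within 1 kb of such a gene (0.124% of all ESC Oct1 peaks), 12 were members, 8 were kept at both later times, 2 had no later peak and none had only a day 6 peak. These were 1.15% of members, 1.50% of sites kept at both times and 0.0129% of sites with no later peak. The 12 members lay at H2bc14, H2bc18, H2bc11, H2bc8, H2bc12, H2bc15, H4c17, H4c4, H1f5, H1f1, H1f3 and H3c11. Some of these peaks also covered the start of a histone H2A gene, such as H2ac8 and H2ac12. All but H2bc18 were on chromosome 13. Only 4 of the 12, at H2bc18, H1f5, H1f1 and H1f3, had an Oct4 peak. With peaks over 2 kb wide and clustered peaks left out, the count of members at histone genes was 3.

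Within the day 3 list these histone sites ranked high. A score percentile here is the share of peaks in the same list with a lower score, ties shared, so that values near 100 are the top of the list. In the day 3 list the 12 sites stood between percentiles 84.5 and 97.5 (median 92.6), whereas the median over all 1040 members was 33.0. In the ESC list they stood between 19.9 and 98.0 (median 91.7). The 8 histone sites kept at both times had a higher ESC median, 98.8. The site at H2bc14 (chr13:21721671-21722540) ranked 376 in ESCs and 169 at day 3. The site at H4c4 (chr13:23581501-23582010) ranked 11382 in ESCs but 172 at day 3. That at H3c11 (chr13:21782881-21783430) ranked 14150 in ESCs and 318 at day 3. These ranks come from lists of different lengths and do not measure a change in binding.

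The histone loci were then counted in each library as a whole. Within 1 kb of the 68 histone genes of this set Oct1 had 22 peaks in the ESC list, 44 in the day 3 list and 10 in the day 6 list. These lists hold 17709, 4867 and 7758 peaks. The genes with such a peak numbered 32, 57 and 16. The 10 day 6 peaks had a median percentile of 25.6 in their list, and the 44 day 3 peaks one of 91.6. Oct4 had 8 peaks there. Octamers were found in the promoters of H2bc14, H2bc18, H2bc12 and H2bc8, and the same positions on the opposite strand fell in the promoters of H2ac12 and H2ac8, which are transcribed divergently. The other histone promoters at members, those of H2bc11, H2ac11, H1f5, H1f1, H1f3, H4c4 and H3c11, held no exact octamer.

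**Figure D3:**
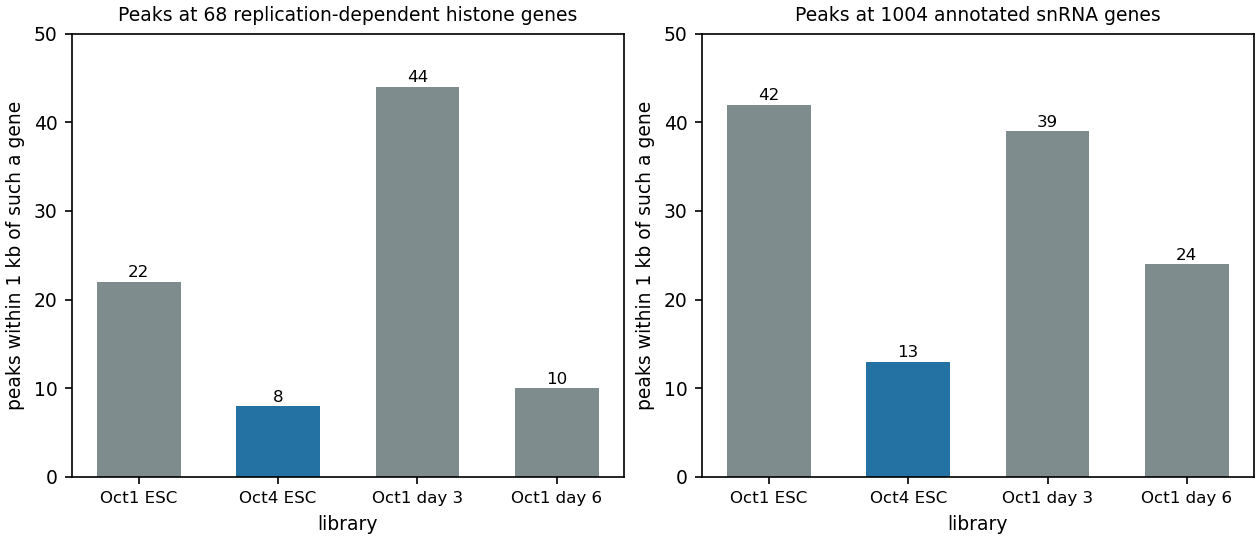
Number of peaks (vertical axis) within 1 kb of replication-dependent histone genes (left, 68 genes) and annotated snRNA genes (right, 1004 genes) in each of the 4 libraries (horizontal axis), Oct4 in blue. Oct1 has 22, 44 and 10 peaks at histone genes in ESCs, at day 3 and at day 6, and 42, 39 and 24 at snRNA genes; the lists differ in length, and each bar is 1 library.

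Sites at snRNA genes ranked high in both Oct1 lists. The snRNAs form the cores of the spliceosome, and their promoters carry an octamer-bearing distal element known to recruit Oct1. Of 42 ESC Oct1 peaks within 1 kb of an annotated snRNA gene (0.237% of all ESC Oct1 peaks), 12 were members, 21 were kept at both later times, 9 had no later peak and none had only a day 6 peak. These were 1.15% of members, 3.95% of sites kept at both times and 0.0581% of sites with no later peak. The median ESC percentile was 99.7 for the 21 kept at both times and 99.5 for the members. The 12 members stood between percentiles 95.6 and 99.9 in the ESC list and between 85.2 and 99.2 in the day 3 list. Only the site at Rnu11, the U11 RNA of the minor spliceosome, had an Oct4 peak, at Oct4 rank 15754. It ranked 47 in ESCs and 92 at day 3 (chr4:132269971-132270800). The same peak lay 3970 bp from Taf12, a TFIID subunit gene described in earlier work as an Oct1 target, and 3281 bp from the nearest day 6 peak. Without wide or clustered peaks the count of members at snRNA genes was 6. The site at Rnu1b1, a U1 gene, ranked 770 in ESCs and 367 at day 3.

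Many snRNA loci are annotated by predicted symbols. Close to Rdm1 a site ranked 25 in ESCs and 39 at day 3, with the snRNA gene LOC115487916 at 256 bp. A cluster on chromosome 12 held Gm22634 (ESC rank 56), Gm22513 (74) and LOC115488077, 172 bp from a peak inside the pseudogene Gm2412 (79). On chromosome 11 the site at Gm26316 ranked 50. At Gm26243 a day 6 peak lay only 81 bp from the ESC peak, so its absence at day 6 rests on a short gap. Grouping by the snRNA annotation was chosen after the data were seen. Promoters of snRNA genes were not searched for the octamer here.

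Slightly fewer members than ESC Oct1 peaks in general overlapped an Oct4 peak. Of the 1040 members, 567 (54.5%, 51.4 to 57.6%) overlapped an Oct4 peak, against 59.1% of all ESC Oct1 peaks. With lists of equal length the members' share was 35.8%, and without wide or clustered peaks 38.7%. The share was 44.9% at sites kept at both later times, 84.9% at sites with only a day 6 peak and 58.8% at sites with no later peak. The odds ratio against sites with only a day 6 peak was 0.214 (0.167 to 0.273), and against sites with no later peak 0.840 (0.741 to 0.954). With the higher-scoring 50% of every list, or with lists of equal length, the former became 0.788 (0.489 to 1.27) or 0.652 (0.390 to 1.09). Without wide or clustered peaks the former was 0.338 (0.266 to 0.429). Under the same first 2 settings the latter became 0.837 (0.685 to 1.02) or 0.897 (0.756 to 1.06), and these intervals include 1. By quartile of the ESC score, the latter ran from the lowest scores to the highest as 0.844, 0.617, 0.822 and 0.989. Only the interval of the second of these (0.446 to 0.856) did not include 1, and among the highest scores the shares were 55.7% and 56.0%.

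Against sites kept at both later times the comparison depended on position. Over all sites the odds ratio of an Oct4 peak was 1.47 (1.19 to 1.81). For sites near gene ends (1 kb) the ratio was 1.83 (1.32 to 2.53), with 52.1% of members and 37.3% of kept sites bearing an Oct4 peak. Away from gene ends it turned to 0.688 (0.479 to 0.987), with 55.3% and 64.2%. With peaks over 2 kb wide and clustered peaks left out, the ratio over all sites was 1.08 (0.842 to 1.39), an interval that includes 1. With the higher-scoring 50% of every list it was 2.41 (1.75 to 3.33).

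**Figure D4:**
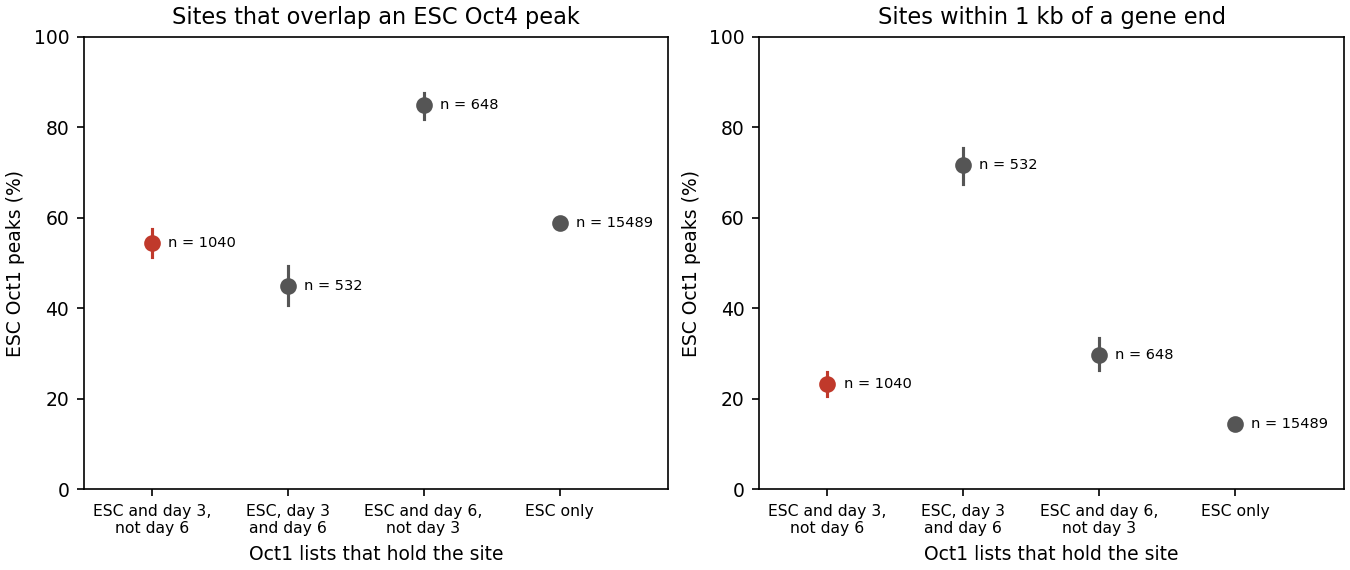
Share of ESC Oct1 peaks (vertical axes, percent) that overlap an ESC Oct4 peak (left) or whose midpoint lies within 1 kb of a gene end (right), by the Oct1 lists that hold the site (horizontal axes). Points are shares, bars exact 95% intervals, and n the number of peaks; sites of ESC and day 3 only (red) stand at 54.5% and 23.3%, whereas sites kept at both later times stand at 44.9% and 71.6%.

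Members were frequent among the highest Oct4 scores, though not higher in their median Oct4 score. The 1040 sites overlapped 574 of the 22817 Oct4 peaks, and 11 of the 20 with the highest Oct4 scores. Of the other 9, 2 overlapped sites kept at both times, 6 sites with no later peak, and 1 no ESC Oct1 peak. Among the 100 highest Oct4 peaks 35 overlapped members. The median Oct4 percentile of the 567 members with an Oct4 peak was 65.8, the same as over all ESC Oct1 peaks with one (65.8) and below that of sites kept at both times (86.9). The Oct4 peak of rank 2 overlapped a site inside Camta1, which encodes a calmodulin-binding transcription activator (chr4:151604291-151605160), of ESC rank 48 and day 3 rank 155. The peak of rank 4 overlapped a site inside Npas4, an activity-induced bHLH factor gene, where Oct1 ranked 65 in ESCs and 108 at day 3. Those of ranks 5, 6 and 7 overlapped sites 27324 bp outside the lncRNA gene Gm30851, inside Phf21b and inside Rbfox3, which encodes a neuronal splicing factor. At Gm30851 the Oct1 site ranked 66 in ESCs but 2103 at day 3. The Oct1 sites under these 5 Oct4 peaks were 4827 bp or more from a gene end.

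The scores of the sites described the choice itself, since the rule used both Oct1 lists. The ESC score percentile of members had a median of 76.7, with quartiles at 46.6 and 93.7. The median was 94.8 for sites kept at both times and 46.6 for sites with no later peak. Members in the top 10% of the ESC list numbered 338 (32.5%), and 287 (27.6%) lay below its median. In the day 3 list the median percentile was 29.1 for members with an Oct4 peak and 36.2 for those without. Peaks with Oct4 were wider, with median widths of 740 and 640 bp, and the part of width in the overlap was not tested.

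**Figure D5:**
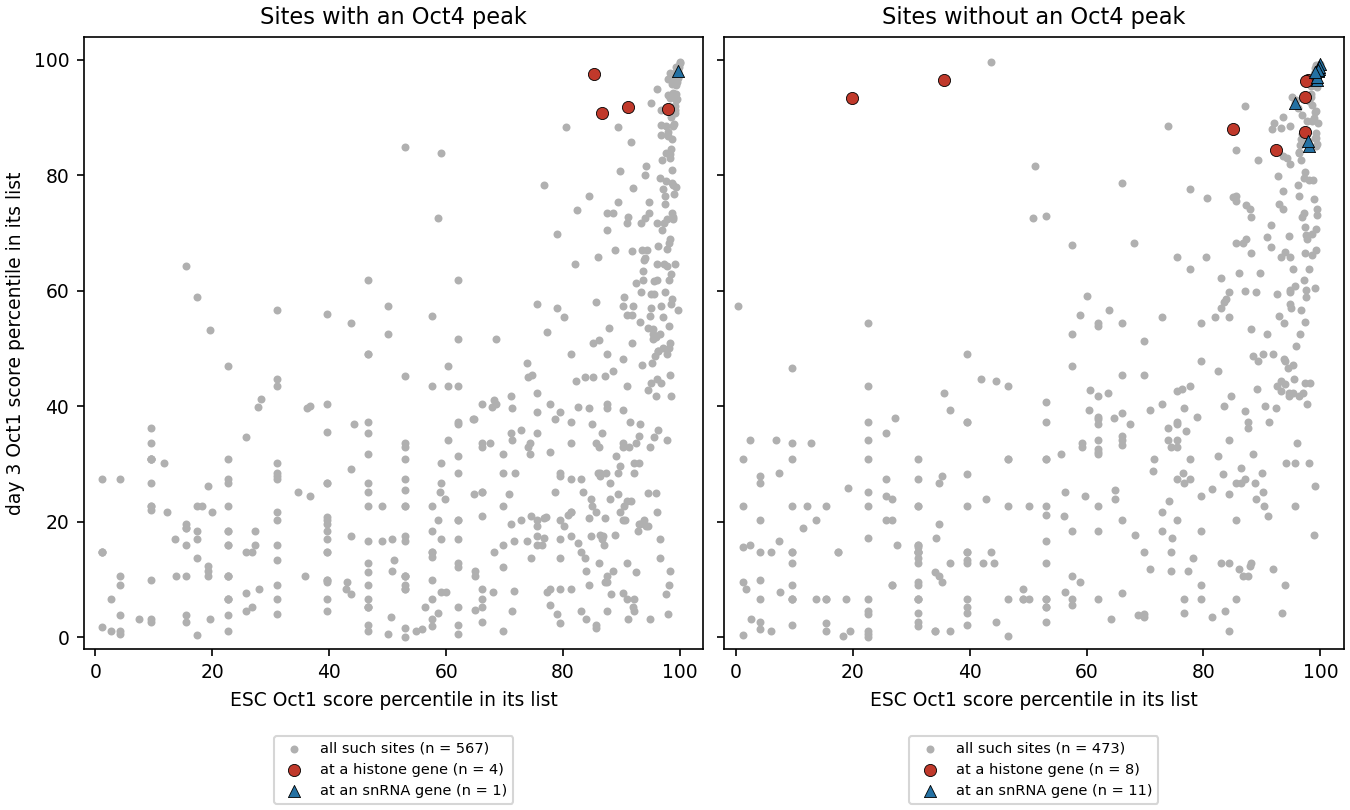
Score percentile in the day 3 Oct1 list (vertical axis) against that in the ESC Oct1 list (horizontal axis) for the 567 sites with an Oct4 peak (left) and the 473 without (right), 1 point per site. Sites at histone genes (red circles) lie at day 3 percentiles of 84.5 or more and sites at snRNA genes (blue triangles) at the upper right, 11 of the 12 among sites without Oct4.

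Among members with an Oct4 peak, the highest ESC score belonged to the site inside the lncRNA gene Gm34201 (chr15:84620681-84622780), which ranked 6 in ESCs, 15 at day 3 and 19 for Oct4. Its promoter, printed above, is one of the pair with a Sox-Oct composite. The next were beside Hormad2, a meiotic chromosome axis gene (ESC rank 13, day 3 rank 27), and inside Slc8b1, a mitochondrial sodium-calcium exchanger gene (42 and 59). After Rnu11 and Camta1 came sites 12162 bp from Igsf21 (53 and 139), 15288 bp from Gm32603 (59 and 146), at Npas4, at Gm30851 and inside Erich1 (80 and 122).

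Among members without an Oct4 peak, the site at Rdm1 was followed by sites inside 9630028I04Rik (27 and 69) and inside Epn2, an endocytic adaptor gene (32 and 49). Gm26316 and Gm22634 came next, then a site inside Atp6v0a4, a proton pump subunit gene (68 and 532). The remaining ones were Gm22513, Gm33272 on chromosome Y (77 and 129), Gm2412, and a site 44671 bp from Gm32293 (88 and 82). Thus 5 of these 10 sites lay at snRNA genes, against 1 of the 10 with Oct4.

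Apart from the 20 sites with the highest ESC scores just listed, the 5 highest day 3 scores were at Thra, Prox2, Them7, Inhbb and a further site near Gm33272. These were picked for their day 3 scores, and ranks from lists of different lengths show no change. At Thra, the thyroid hormone receptor alpha gene, the ESC peak (chr11:98742701-98743260) ranked 9903 and the day 3 peak 19, and a day 6 peak lay 161 bp away. At Prox2, a homeobox gene whose promoter octamer is printed above, the ranks were 146 and 40. At Them7 they were 110 and 63, at Inhbb, an activin subunit gene, 173 and 70, and at the Gm33272 site 105 and 85. The 2 sites at Gm33272 were the only members on chromosome Y.

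Most members lay away from gene ends. The midpoint was within 1 kb of an end of an annotated gene at 242 sites (23.3%, 20.7 to 26.0%), against 17.3% of all ESC Oct1 peaks. The members' share was 39.5% with the higher-scoring 50% of every list, 46.3% at 5 kb and 14.6% at ends of protein-coding genes. The share was 71.6% at sites kept at both times (odds ratio of members against them 0.120, 0.0948 to 0.152) and 14.5% at sites with no later peak (1.79, 1.54 to 2.08; 3.10 with the higher-scoring 50% of every list). Sites with only a day 6 peak stood at 29.8% (0.715, 0.573 to 0.892), and at 5 kb this last ratio was 0.880 (0.723 to 1.07). With the higher-scoring 50% of every list it was 0.103 (0.0527 to 0.200), and with lists of equal length 0.176 (0.0997 to 0.310). It was 22.2% for members with an Oct4 peak and 24.5% for those without, with an odds ratio of 0.879 (0.659 to 1.17). A further 46.6% of all members were inside a gene and over 1 kb from its ends, and 30.1% were outside genes. Exons and introns were not resolved, because the gene table used here gives only gene bounds.

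The sites were spread over 969 nearest genes, of which 908 were nearest to a single site. Slc39a11, which encodes a zinc transporter, had 4 sites within its 405 kb, alongside 28 ESC Oct1 peaks in all, 5 day 3 peaks and no day 6 peak. The axon guidance gene Ntn1, the RNA-binding protein gene Msi2, Col18a1, Trappc9, Lrrc75a, Rab11fip4, Txnl1 and Unc5cl had 3 each.

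Day 6 peaks were also counted around the sites. A day 6 peak lay within 1 kb of 25 members (2.40%), against 0.762% of sites with no later peak, and within 10 kb of 149 (14.3%), against 11.1% of the latter. The median gap to a day 6 peak was 46791 bp. At 326 members (31.3%) the nearest gene was nevertheless also nearest to a day 6 Oct1 peak elsewhere, against 33.8% of sites with no later peak. Over all ESC Oct1 peaks the share was 37.7%. That share includes sites that themselves overlap a day 6 peak, which the rule bars for members, so it is not a like comparison. The odds ratio of members against sites with no later peak, 0.894, had an interval of 0.781 to 1.02. The interval lay below 1 when sites within 1 kb of a day 6 peak were left out (0.858) and when the day 6 peak had to lie in the gene body (0.832). The share itself was 13.6% with the higher-scoring 50% of every list and 16.0% with lists of equal length.

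The rule's boundaries were set by a few bases at some sites. The smallest overlaps with a day 3 peak were 30 bp near Slc24a5, 90 bp at Slc4a5 and 90 bp at Nrg2. The nearest day 6 peaks were 41 bp away at Catsperd, 81 bp at Gm26243 and 101 bp at Hoxb4. Just outside, sites kept at both times overlapped a day 6 peak by 190 bp at Smcr8 and at Gm10644 and by 200 bp at Rab10os.

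Genes of pathways relevant to the differentiation were then read from gene lists. A gene counted if a member lay in it, within 10 kb of it, or had it as the nearest gene. Of 21887 protein-coding genes, 960 (4.39%) did so. By list, the genes with a member were 2 of 27 for pluripotency, 5 of 35 for TGF-beta, BMP and Smad signalling, and 3 of 31 for mesoderm. They were 3 of 20 for Wnt, 1 of 15 for FGF, 2 of 21 for glycolysis and the pentose phosphate pathway, and 0 of 16 for POU factors. With any ESC Oct1 peak counted instead of members, the genes numbered 17, 18, 12, 15, 10, 12 and 6 in the same order of lists. With so few genes each, none of these lists is called apart from the background. The histone list had 37 of 68 genes, but through the 12 clustered sites described above. A list of named small nuclear and RNA polymerase III genes, mostly tRNA genes, had 17 of 434 through 11 sites.

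In the pluripotency list, Zfp42 (Rex1) had the site with the higher ESC score (chr8:43306811-43307480). It covered the annotated start, with its midpoint 136 bp outside the gene, and ranked 119 in ESCs, 1072 at day 3 and 42 for Oct4. Its promoter octamer is printed above, and the nearest day 6 peak was 1627421 bp away. At Lin28a, which encodes a repressor of let-7 maturation, a site inside the gene ranked 9106 in ESCs, 1847 at day 3 and 6596 for Oct4.

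In the TGF-beta list, the site 4373 bp from Lefty2, a Nodal antagonist gene, ranked 677 in ESCs, 2449 at day 3 and 64 for Oct4. A site inside Gdf3, a ligand gene, ranked 2160 in ESCs and 2636 for Oct4. Sites inside Smad3, a signal transducer gene, and Smad6, an inhibitor gene, ranked 11711 and 12839 in ESCs. That at Id2, a BMP target gene, ranked 7273, and these last 3 had no Oct4 peak. Counted in the same way, Smad3 had 10 further ESC Oct1 peaks, Smad6 had 3 and Id2 had 1.

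For mesoderm, the T-box gene Eomes had a site 763 bp away (ESC rank 7381, day 3 rank 2154) and Meox1 one at 16241 bp (3769 and 3629), both with Oct4. The gene T (brachyury) had a weak one at 13579 bp (16752 and 3502) without Oct4. Of the neural genes, Neurog1 had a site at ESC rank 14205 with Oct4. Among Wnt genes, the sites at Tcf7 (rank 651, without Oct4), Tcf7l1 (4477, with Oct4) and Wnt3 (14533, with Oct4) differed widely in score. The last of these lay inside Wnt9b and 2540 bp from Wnt3. Tcf7 had 5 further ESC Oct1 peaks, Tcf7l1 had 13 and Wnt3 had 7. A site 5067 bp from Fgf17 ranked 479 and lay inside Npm2. The metabolic genes Aldoc and Pfkm had sites at ESC ranks 2423 and 17203, both with Oct4.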

How the data were processed

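Chromatin of mouse ESCs was crosslinked with 1% formaldehyde and sequenced as paired reads of 50 bp at a stated 100 M read pairs, per the labels' protocols. The authors deposited 1 peak list per ChIP library, with chromosome, start, end, name and a whole-number score per peak that has no unit. Novoalign 3.8.2 and build mm10 (GRCm38) are named in the submitters' processing notes. The peak caller, its threshold and the use of a control are not given in the sources used here. The 3 input libraries were not analysed here.

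Groups came from the source names. Peaks shared between lists (at least 1 bp) were counted with pandas 2.3.3 and numpy 2.4.6 in Python 3.11.15, and bedtools 2.31.1 gave the same members. Intervals used scipy 1.17.1. The deposited score was used only to rank peaks within its list. Genes and promoters came from RefSeq (GRCm38.p6). Promoters of chromosome 18 and of snRNA genes were not used here. Intervals at 95% were exact (Clopper-Pearson) for shares and log-scale for odds ratios. They cover counting error only, because the reads behind each list are unknown and peaks are not replicates. No p-value was computed. Named sites were those with the highest scores with and without Oct4, those at genes of the lists, those nearest to the rule's boundaries, and those at histone or snRNA genes. Genes with 3 or more sites and promoters with an octamer were named from their own counts. The count for the list of neural genes is not reported here. The sites and gene lists were chosen with earlier results of these data known. Alternatives varied the overlap, the score cut, peak clusters, the gene distance and the motif. Functions were tested on simulated data, and figures were drawn with matplotlib 3.10.9.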

Additional observations from a re-analysis of the deposited data

How the results depend on the processing

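Of 198 alternative values for 21 results, 150 were counted as keeping the main reading. For these, odds ratios kept their direction and whether their interval included 1, shares stayed within the main interval, and counts within 1.5 times. The size of such an odds ratio could still change greatly. An example was the octamer against sites with no later peak, at 9.58 in the main setting and 2.11 with up to 1 mismatch. The number of sites was 405 (4.55% of ESC Oct1 peaks) with the higher-scoring 50% of every list and 664 (13.4%) with every list cut to the length of the shortest. Of these, 325 and 567 were among the 1040. In that order, under these 2 settings, the share with an Oct4 peak was 44.7% and 35.8%, the gene end share 39.5% and 31.5%, the share whose nearest gene had a day 6 peak 13.6% and 16.0%, and the median ESC percentile 96.1 and 93.0. With a mutual overlap of 50% of each peak, the Oct4 share was 49.4% and the gene end share 26.8%. Without peaks over 2 kb and clustered peaks, the Oct4 share was 38.7%, the share with a day 6 peak at the nearest gene 26.8%, and the Oct4 odds ratio against sites kept at both times 1.08. That setting removes clusters by construction, and gave 3 members at histone and 6 at snRNA genes. The gene end share was 16.7% at 500 bp, 46.3% at 5 kb and 14.6% for protein-coding genes. The Oct4 odds ratio against sites with no later peak had an interval that included 1 with the higher-scoring peaks (0.837), equal lists (0.897), no clusters (0.886) and the ESC scores of the top quartile (0.989). The octamer share was 32.9% with up to 1 mismatch (18.6% of all promoters) and 25.8% for windows wholly inside the peak. Its odds ratio against sites kept at both times fell below 1 with equal lists (0.962) and with 1 mismatch (0.921). The odds ratio for a day 6 peak at the nearest gene had an interval below 1 when sites within 1 kb of a day 6 peak were left out (0.858) and when the day 6 peak had to lie in the gene body (0.832), where the share was 20.6%. The cause of these changes was not tested. The top-quartile, whole-window, histone-free and per-peak settings were chosen after seeing the data. A motif search in the central part of each peak was not run, because no sequence outside the promoter windows was used here. No paired analysis was possible because each group had 1 library. The unknown depth limits every statement on the absence of a peak.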

Other observations

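The sites were unevenly spread over the chromosomes. On chromosome 13 they made up 54 of 488 ESC Oct1 peaks (11.1%, exact 95% interval 8.42 to 14.2%), and on the other chromosomes 986 of 17221 (5.73%, 5.38 to 6.08%). With peaks at histone genes left out, chromosome 13 still had 43 of 470 (9.15%, 6.70 to 12.1%). Chromosome 11 held 190 of the 1040 sites (18.3%), against 14.1% of all ESC Oct1 peaks, and 119 of the 190 had an Oct4 peak. Among sites with an Oct4 peak 3.53% lay on chromosome 13, and among those without it 7.19%. The chromosomes were set side by side after their values were seen.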
